A study of Mus musculus with 24 samples.

Results

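The cytosolic ribosomal protein genes were examined in 24 RNA-seq libraries of whole uteri from 21-day-old female C57bl/6 mice. They were chosen by symbol alone, as the genes named Rpl or Rps with a number (and an optional a, x or l), Rplp with a number, or Rpsa. The rule found 82 of the 22943 genes in the deposited table, 50 with large-subunit symbols and 32 with small-subunit symbols. The knockout mice (PgrCre+;Ctcf-f/f) carried floxed Ctcf and a Cre driven from the progesterone receptor gene Pgr, and their Ctcf-f/f littermates without Cre, called floxed here, served as controls. Mice were sampled 6 h after a subcutaneous injection of 0.5 mg progesterone in 0.05 ml sesame oil or of 0.05 ml oil alone. There were 4 knockout and 4 floxed libraries after progesterone, and 8 knockout and 8 floxed libraries after vehicle. Recombination is limited to cells that have expressed Pgr, while each library holds RNA of the whole organ. The labels do not say that each library is a separate animal, so p-values measure the spread between libraries.

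Each ribosome carries about the same complement of these proteins around its ribosomal RNA, with the Rpl proteins and the P stalk in the large subunit and the Rps proteins in the small subunit. The genes are expressed in every growing cell. Their mRNAs typically begin with a C followed by a run of pyrimidines, the terminal oligopyrimidine (TOP) tract, and mTOR signalling acts on these mRNAs mainly at translation, which a measurement of mRNA does not read. In the uterus, ovarian steroids are known to set tissue growth and the synthesis of ribosomes.

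To show the start of these mRNAs, 30-base windows around the annotated start site are given. They cover 4 members with a TOP tract exactly at that site and 4 without one at that site. The windows come from the RefSeq promoter table of GRCm38.p6, which held 61 of the 82 members. Each window runs from 15 bases before the start site, and its 16th letter is the first base of the transcript. Capitals mark the longest run of pyrimidines within 5 bases of the start.
Rps6 (chr4:86857353-86857382, minus strand): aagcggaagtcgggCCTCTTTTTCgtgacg
Rps27 (chr3:90213634-90213663, minus strand): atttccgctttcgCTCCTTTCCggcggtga
Rplp2 (chr7:141447636-141447665, plus strand): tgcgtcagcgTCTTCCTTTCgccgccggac
Rps18 (chr17:33955651-33955680, minus strand): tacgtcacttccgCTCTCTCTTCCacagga
Rps27l (chr9:66946071-66946100, plus strand): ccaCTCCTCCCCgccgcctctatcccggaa
Rpl41 (chr10:128549154-128549183, minus strand): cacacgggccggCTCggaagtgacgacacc
Rplp0 (chr5:115559452-115559481, plus strand): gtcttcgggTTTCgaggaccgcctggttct
Rps2 (chr17:24720048-24720077, plus strand): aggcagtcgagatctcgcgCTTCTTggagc
In Rps6 (the substrate of the S6 kinases), Rps27, Rplp2 and Rps18 the first base is a C inside the run, whereas in Rps27l, Rpl41 and Rplp0 the first base is a G. In Rps2 it is a C that no pyrimidine run follows directly. A C at the start with at least 4 more pyrimidines was found in 14 of 61 members (23%), against 2.92% of 11167 other tested genes, 0 of 69 mitochondrial ribosomal protein genes and 1 of 49 ribosome biogenesis factors. A run of at least 8 pyrimidines near the start was found in 24 members (39.3%), against 12.3% of the other tested genes. The core letters of the CTCF motif (CCA, any 2 bases, AG, any 2 bases, GGC, on either strand) were in the 300-base promoter window of 3 members (4.92%, Rpl38, Rplp0 and Rps4x), against 3.41% of the other tested genes. A match of letters is a description of the sequence and not a measured binding site. The grouping of the windows and the first counts depend on the annotated start being placed to the base. They do not show that any mRNA lacks a TOP tract.

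Levels are given as the batch-corrected RPKM of the deposited table (reads per kilobase of transcript, scaled to the depth of the library). Of the 82 members, 79 reached 1 RPKM in at least 4 libraries and were tested. The exceptions were Rpl3l (known from muscle), Rpl10l and Rpl39l (both known from testis), which stayed below 1 RPKM in each library, with means of 0.105, 0.000622 and 0.0379 RPKM. The broadly expressed partners of these paralogs averaged 290 RPKM (Rpl3), 220 RPKM (Rpl10) and 154 RPKM (Rpl39). Rpl3 helps to form the peptidyl transferase centre and Rpl39 lines the exit tunnel. The tested members had a median level of 168 RPKM, against 9.42 RPKM over the other tested genes. A level above 100 RPKM was found for 59 of 79 members and for 1.82% of other tested genes, and 36 of the 100 genes with the highest mean level were members.

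The highest mean levels were those of Rpl41, which encodes a very short peptide of the large subunit, at 799 RPKM, and of the stalk proteins Rplp1 at 595 RPKM and Rplp0 at 491 RPKM. The stalk recruits the elongation factors. Its Rplp2 averaged 57.4 RPKM although it pairs with Rplp1. The lowest tested members were Rps4l at 15.7 RPKM, Rps15a at 13.7 RPKM and Rpl34 at 13.1 RPKM. The annotation (GENCODE M21, GRCm38) calls Rps4l a transcribed processed pseudogene and Rpl32l a processed pseudogene, and the other 80 members protein coding. Rpl32l shared 97.5% of its aligned bases with Rpl32 and Rps4l shared 80.1% with Rps4x. The annotation also names 298 pseudogenes after 60 of the members, and 29 members (35.4%) hold a snoRNA gene, against 1.38% of other tested protein-coding genes. No source used here states how reads shared among such copies were counted, so levels of single members are uncertain.

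Before the group comparisons, each library was checked for a shift that all members share. For each library, the deviation of a member is its log2 level minus its mean over all 24 libraries. The median deviation of the 79 members was 0.70 in knockout progesterone library 8, and −0.08, −0.03 and 0.12 in the other knockout progesterone libraries. It was −0.18, 0.05, −0.06 and 0.12 in the 4 floxed progesterone libraries. Among the knockout vehicle libraries it lay between −0.22 and 0.38, with a median of −0.085 and the highest value in library 13. Among the floxed vehicle libraries it lay between −0.27 and 0.22, with a median of −0.09 and the highest value in library 1a. Library 8 therefore stood above the other 23 libraries, and 78 of its 79 tested members were above their own mean, the exception being Rpl29.

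**Figure D1:**
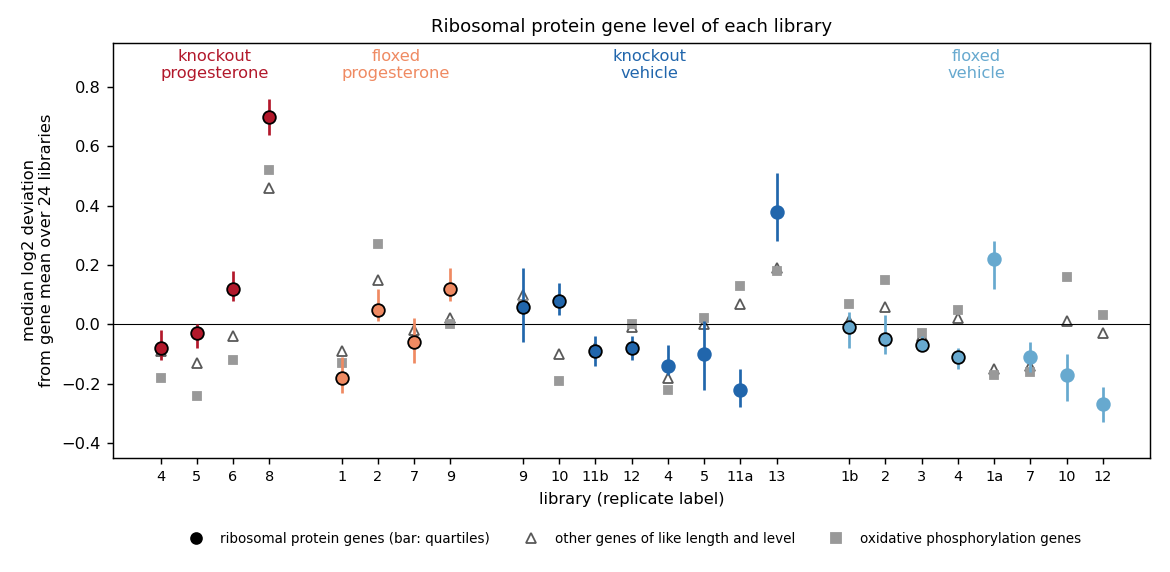
Median log2 deviation of the 79 tested ribosomal protein genes in each library, with the medians of other genes of like length and level and of oxidative phosphorylation genes. Circles are the medians of the ribosomal protein genes, bars run from the lower to the upper quartile, and black rims mark the batch with all 4 groups. Knockout progesterone library 8 lies at 0.70, followed by knockout vehicle library 13 at 0.38 and floxed vehicle library 1a at 0.22.

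The members made up 8.31% of all RPKM in library 8, against 5.07 to 7.62% in the other 23 libraries. The total of library 8 was 311200 RPKM, against 253141 to 282437 RPKM in the others. Genes of another kind moved with the members in this library. In library 8 the median deviation was 0.46 for 404 other genes of like transcript length and level, 0.52 for nuclear-encoded oxidative phosphorylation genes, 0.40 for mitochondrial ribosomal protein genes and 0.05 for all tested genes. The median deviation of 11 myeloid markers was 0.99 there, and that of the squamous epithelial markers was 0.94, with a summed level of 45 RPKM. All other progesterone libraries had squamous values of −0.91 or −0.90. The vehicle libraries ran from −0.91 to 3.80 in knockout and from −0.91 to 1.17 in floxed uteri. Every library of the vehicle-only batch lay at 0.67 to 1.34. Within the batch with all 4 groups, only knockout vehicle library 9, at 3.80, had a higher squamous value than library 8. In library 8 smooth muscle markers deviated by 0.55 and epithelial markers by 0.54, each the highest of the 24 libraries. Lymphocyte markers deviated by 0.64, stromal markers by 0.11 and endothelial markers by 0.02. The myeloid markers also deviated by 1.06 in library 6 of the same group, where the member median was 0.12. The part of these genes in the member level of library 8 was not tested. Read from the steps between low values, the depth of library 8 was 51.2 M reads, and all libraries ranged from 29.9 to 100.6 M reads. Library 8 had the lowest depth of the progesterone libraries, the next being floxed library 9 at 63 M reads. Knockout vehicle library 13 and floxed vehicle library 1a, with the next highest member medians, had 34.6 and 40.1 M reads. Knockout vehicle library 5 had the fewest, 29.9 M reads, with a member median of −0.10. The part of depth in the member level was not tested.

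In knockout vehicle library 13 the members stood at 0.38 and the genes of like length and level at 0.19. In floxed vehicle library 1a the members stood at 0.22 and the genes of like length and level at −0.15. Floxed vehicle library 12 had the lowest member median, −0.27, with genes of like length and level at −0.03. The median deviations of both subunits moved together, at 0.68 for the large and 0.74 for the small subunit in library 8. Subtracting each library's median lowered the within-group SD of log2 level in 76 of 79 members, and the median SD over members was 0.10 after subtraction and 0.22 before it. The members with the largest SD before subtraction were Rpl29 and Rpl30 at 0.45 each and Rpl34 at 0.41.

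**Figure D2:**
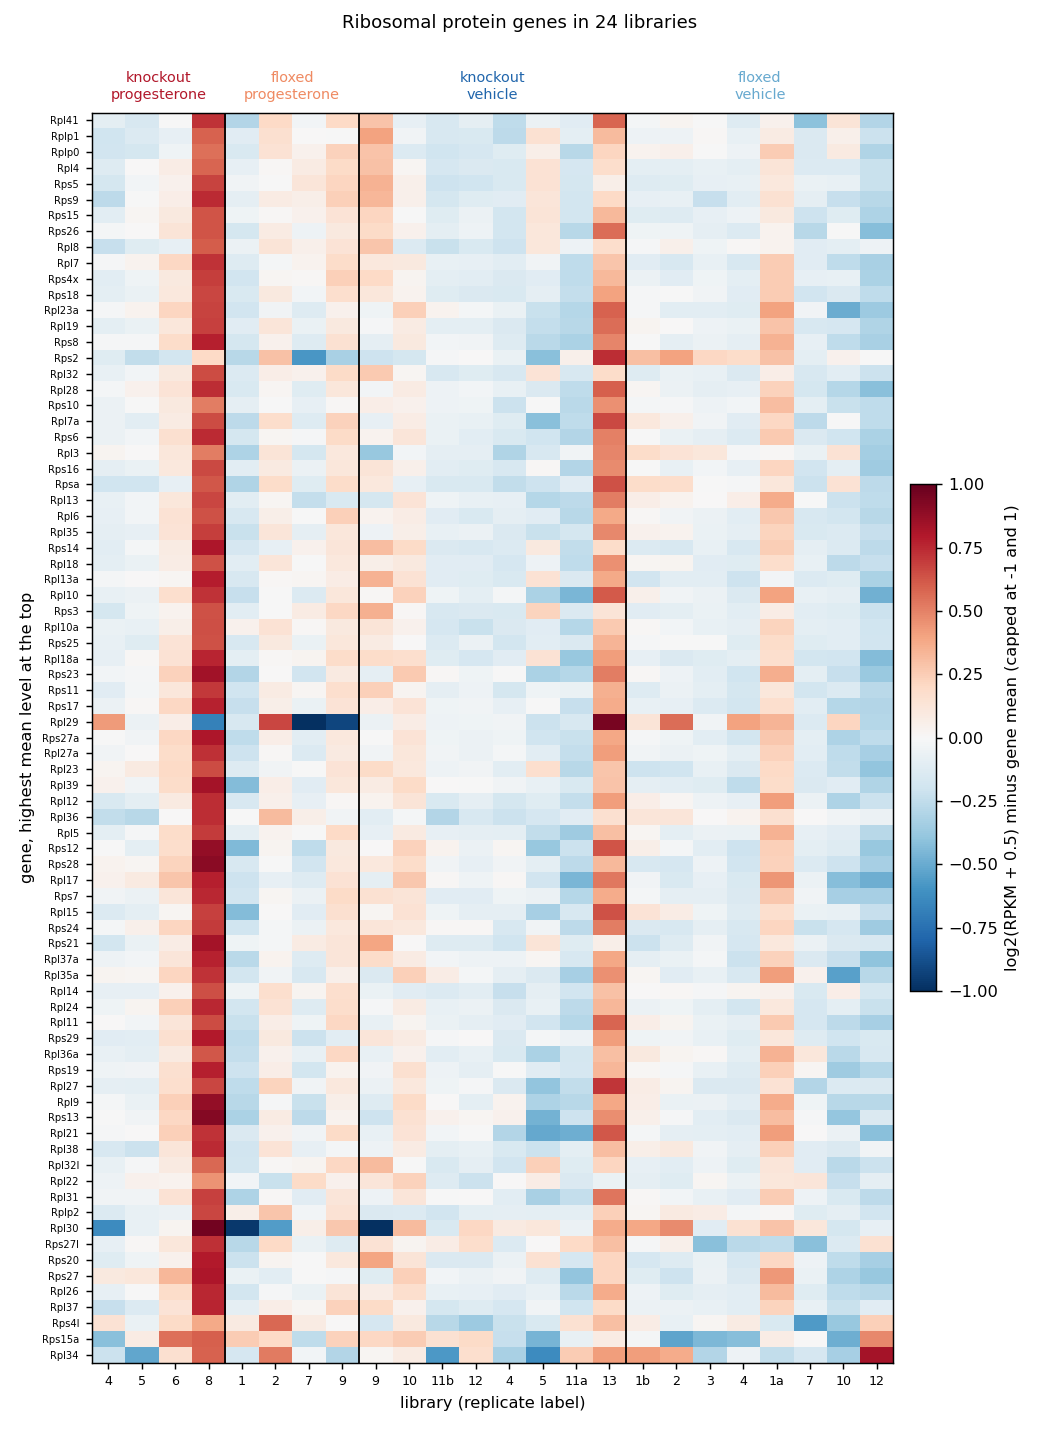
Log2 level of the 79 tested ribosomal protein genes minus each gene's mean, in the 24 libraries grouped by genotype and treatment, with the highest mean level at the top. The column of knockout progesterone library 8 is high in 78 of 79 rows, and Rpl29, Rpl30 and Rpl34 depart from the shared pattern of the columns.

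Ctcf itself averaged 9.95 ± 0.982 RPKM in knockout and 26 ± 1.05 RPKM in floxed uteri after progesterone (SD, n = 4 each), and 11.5 ± 1.11 and 25.9 ± 2.36 RPKM after vehicle (SD, n = 8 each). The highest knockout library had 13.1 RPKM and the lowest floxed library 23 RPKM, so the genotypes did not overlap. Epithelial, stromal and smooth muscle markers were present in every library, with summed levels of 275 to 604, 946 to 2831 and 1173 to 2141 RPKM. In these bulk samples, fewer cells of a type and less RNA per cell cannot be told apart.

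After progesterone, no member passed the test between knockout and floxed uteri (0 of 79, limma, Benjamini-Hochberg adjustment at 0.05 over 14284 genes), while 19.4% of all tested genes passed (1758 higher and 1009 lower, or 1470 and 1319 under quantile normalization). At an unadjusted p below 0.05 there were 4 members, against 31.9% of all tested genes. The log2 fold change was positive in 73 of 79 members, with a median of 0.19 (−0.05 with libraries weighted by their own fit), against 0.03 over all tested genes. It ran from −0.03 for Rpl36 to 0.39 for Rps13. The 95% interval lay within 2-fold for 78 members, and its limits lay 0.32 from the estimate in the median member.

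The median rested on library 8. Without that library it was 0.01, and 42 of 79 members were positive. Library 8 was above every floxed progesterone library in 76 members. In libraries 4, 5 and 6, 173 of 237 pairs of member and library (73%) lay within the range of the floxed progesterone libraries. Neither count was made over all tested genes, so neither can be called particular to the members. The pairs are not independent, since members move together within a library. Myeloid markers passed as higher in knockout uteri in 10 of 11, against 12.3% of all tested genes that passed as higher. Their summed levels were 187 to 471 RPKM in knockout and 119 to 207 RPKM in floxed uteri after progesterone. Of 10 lymphocyte markers only 5 reached the level for testing, and 4 passed as higher (Cd79b, Ptprc, Nkg7 and Cd3g). The summed level of the 10 was low, at 8.24 to 24.7 RPKM in knockout and 4.26 to 9.75 RPKM in floxed uteri. No myeloid marker was at 0 in every library of a group, and the part of these cells in the member values was not tested.

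The smallest adjusted p of that comparison was that of Rps27, a small-subunit protein with a zinc finger. Rps27 had 39, 39.4, 46 and 64.3 RPKM in knockout uteri, against 34.8, 33.8, 36.3 and 36.2 RPKM in floxed uteri after progesterone. The groups did not overlap, and library 8 was again the highest. The log2 fold change was 0.39 ± 0.16 (SE, adjusted p = 0.0915, limma), higher in 4 of 4 knockout libraries. Without library 8 it was 0.23 (adjusted p = 0.302, limma). An exact two-sided permutation test gave p = 0.0286, the smallest that 4 against 4 libraries allow. It was run on the member with the smallest limma p, with no correction for that choice, so it adds no separate support. Within the batch with all 4 groups the adjusted p was 0.037 by limma, and over all alternatives it ranged from 0.037 to 0.501.

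Rps27rt, a copy of Rps27 outside the symbol rule, had 62.1, 61.2, 76.9 and 102 RPKM in knockout uteri, against 54.1, 53.8, 51.8 and 57.3 RPKM in floxed uteri. It was chosen after its values were seen, and 0 of the 7 ribosomal protein genes outside the rule passed any of the 5 tests by limma, with at most 1 at an unadjusted p below 0.05 in each. No source used here states how reads were split between Rps27 and Rps27rt.

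The other members with roles of their own did not pass after progesterone. Rplp0 had 426, 431, 473 and 714 RPKM in knockout uteri and 438, 537, 500 and 571 RPKM in floxed uteri, and its log2 fold change was −0.03 ± 0.16 (SE, adjusted p = 0.92, limma). Only library 8 exceeded the floxed range. Its stalk partner Rplp1 had 514, 537, 556 and 889 RPKM in knockout uteri and 546, 658, 592 and 587 RPKM in floxed uteri, again with library 8 alone above the floxed range. Rpl41 had 735, 705, 784 and 1296 RPKM in knockout uteri and 642, 901, 773 and 903 RPKM in floxed uteri. All but library 8 lay within the floxed range. Rps6 had 276, 283, 322 and 483 RPKM in knockout uteri and 255, 292, 285 and 329 RPKM in floxed uteri, with overlap in 3 of the 4 knockout libraries. Rpl5 and Rpl11, which bind the p53 inhibitor Mdm2 when ribosome assembly fails, averaged 161 ± 43 and 121 ± 29 RPKM in knockout uteri, against 141 ± 12.4 and 105 ± 13 RPKM in floxed uteri (SD, n = 4 each). Rpl22 averaged 70.4 ± 11.6 in knockout and 64.5 ± 7.56 RPKM in floxed uteri, and its paralog Rpl22l1 averaged 53.6 ± 21.5 and 48.5 ± 12 RPKM (SD, n = 4 each). Rpsa, also known as a laminin receptor, averaged 284 ± 86.8 in knockout and 269 ± 43.9 RPKM in floxed uteri (SD, n = 4 each). In each of these members the knockout SD exceeded the floxed one, and library 8 was the highest knockout library.

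Leaving out library 8 with libraries 13 and 1a, a choice made after seeing the data, let 2 members pass as lower in knockout than in floxed uteri after progesterone. They were Rpl36 at −0.26 (adjusted p = 0.0399) and the stalk protein Rplp2 at −0.21 (adjusted p = 0.0448, limma). Rpl36 had 117, 114, 139 and 231 RPKM in knockout and 138, 173, 144 and 135 RPKM in floxed uteri, and with all libraries its log2 fold change was −0.03 ± 0.15 (SE). Over all alternatives the adjusted p ranged from 0.00319 to 0.963 for Rpl36 and from 0.0322 to 0.988 for Rplp2.

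**Figure D3:**
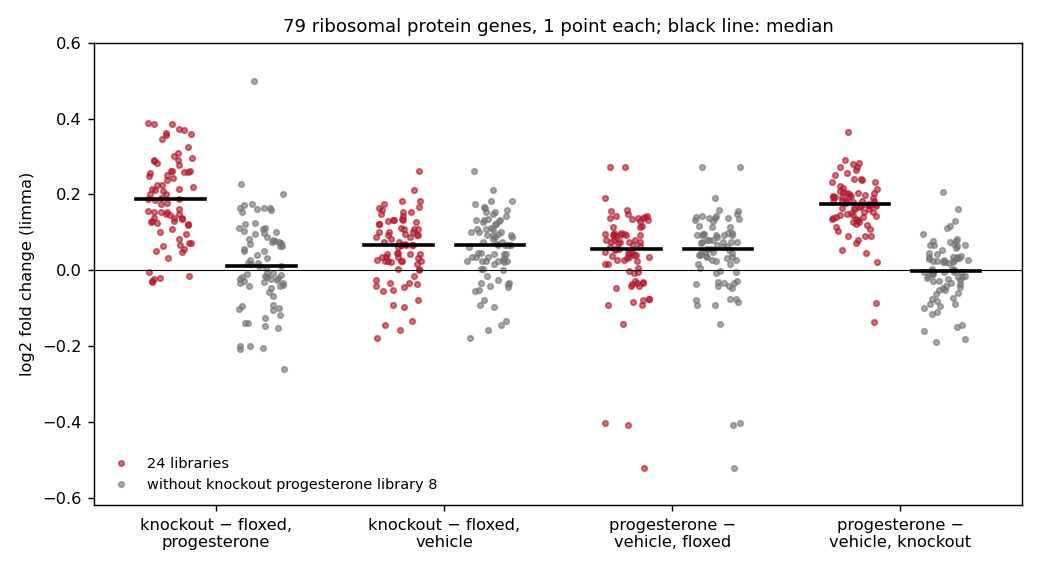
Log2 fold change (limma) of each of the 79 tested ribosomal protein genes in 4 comparisons, with 24 libraries (red) and without knockout progesterone library 8 (grey). Without that library the median (black line) is 0.01 in place of 0.19 between genotypes after progesterone and 0.00 in place of 0.18 between treatments in knockout uteri.

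After vehicle, again 0 of 79 members passed between knockout and floxed uteri by limma, against 24.6% of all tested genes, and 1 member had an unadjusted p below 0.05, against 35.2% of all tested genes. The median log2 fold change was 0.07 (−0.01 with libraries weighted by their own fit), positive in 63 of 79 members, against −0.01 over all tested genes. Without knockout vehicle library 13 the median was 0.00 with 41 positive members. It was 0.07 within the batch with all 4 groups and 0.07 within the vehicle-only batch.

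The member with the smallest p was Rps27l, a paralog of Rps27 that is known in human cells as a target of p53. Rps27l ranged from 43.5 to 59.1 RPKM in knockout uteri (median 51.6), against 35.6 to 53.1 RPKM in floxed uteri (median 41.8, n = 8 each). The groups overlapped, with knockout means of 51.4 ± 4.82 against 43 ± 6.43 RPKM (SD). The log2 fold change was 0.26 ± 0.11 (SE, adjusted p = 0.0814, limma), and an exact two-sided permutation test gave p = 0.0113. The permutation p is not corrected for the choice of the member with the smallest limma p. Without knockout progesterone library 8 or without floxed vehicle library 12 the adjusted p was 0.0288 or 0.0369, and over all alternatives it ranged from 0.0199 to 0.376. Library 8 enters this comparison only through the estimate of the spread, which all groups share. After progesterone Rps27l had 45.1, 48.2, 51.7 and 79.6 RPKM in knockout and 39.4, 55, 45.6 and 43.6 RPKM in floxed uteri. That difference was 0.26 ± 0.15 (SE, adjusted p = 0.253, limma), and 0.08 without library 8 (adjusted p = 0.713).

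Rps27 itself averaged 35.8 ± 5.04 in knockout and 34.3 ± 6.57 RPKM in floxed uteri after vehicle (SD, n = 8 each), and its log2 fold change was 0.07 ± 0.11 (SE, adjusted p = 0.723, limma). The pair can be told apart in sequence over most of its length. Their coding sequences are both 255 bases and differ at 61 of them, and the longest identical stretch is 11 bases. They follow, to show how far the paralogs can be separated, with capitals at the differing bases, from GENCODE M21 transcripts on GRCm38.
Rps27l (coding sequence of the gene at chr9:66946086-66949516, plus strand): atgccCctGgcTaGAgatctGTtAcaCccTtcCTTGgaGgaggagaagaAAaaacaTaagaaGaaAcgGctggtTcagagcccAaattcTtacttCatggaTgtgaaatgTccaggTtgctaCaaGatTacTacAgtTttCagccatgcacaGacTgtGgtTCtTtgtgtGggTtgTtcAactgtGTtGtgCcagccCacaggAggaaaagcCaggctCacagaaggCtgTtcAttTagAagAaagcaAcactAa
Rps27 (coding sequence of the gene at chr3:90212522-90213651, minus strand): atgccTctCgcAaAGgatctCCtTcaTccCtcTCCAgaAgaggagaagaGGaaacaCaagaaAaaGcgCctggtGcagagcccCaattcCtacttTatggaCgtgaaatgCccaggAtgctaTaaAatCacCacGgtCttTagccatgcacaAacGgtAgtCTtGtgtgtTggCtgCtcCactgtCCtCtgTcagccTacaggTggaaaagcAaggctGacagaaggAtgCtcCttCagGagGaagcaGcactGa
Among 8 genes of the p53 list, 5 passed as higher in knockout uteri after vehicle and 4 after progesterone, with none lower in either, against 13.1% and 12.3% of all tested genes that passed as higher. The cell cycle inhibitor Cdkn1a had 27.5 to 47.7 RPKM in knockout and 3.2 to 11.8 RPKM in floxed uteri after vehicle, a log2 fold change of 2.82 ± 0.18 (SE, adjusted p = 9.9e-11, limma). Ccng1 rose by 1.11 and Bbc3 by 0.86 on the log2 scale in that comparison. Myeloid markers passed as higher in 11 of 11 after vehicle and in 10 of 11 after progesterone. Of 8 epithelial markers, 2 passed as higher and none as lower in knockout uteri after progesterone, and 1 as higher and 5 as lower after vehicle. Of 8 stromal markers, 2 passed as lower after progesterone and 3 after vehicle, with none higher. Of 8 endothelial markers, 1 passed as higher after progesterone and 3 after vehicle, with none lower. These are 12.5% and 37.5% of the list, so the share after progesterone was near the 12.3% of all tested genes. Of all tested genes, 7.06% passed as lower after progesterone and 11.5% after vehicle. The summed myeloid level was 253 to 466 in knockout and 117 to 195 RPKM in floxed uteri after vehicle, and the summed epithelial level was 275 to 424 and 382 to 604 RPKM. The part of these cells in the ribosomal protein values was not tested.

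**Figure D4:**
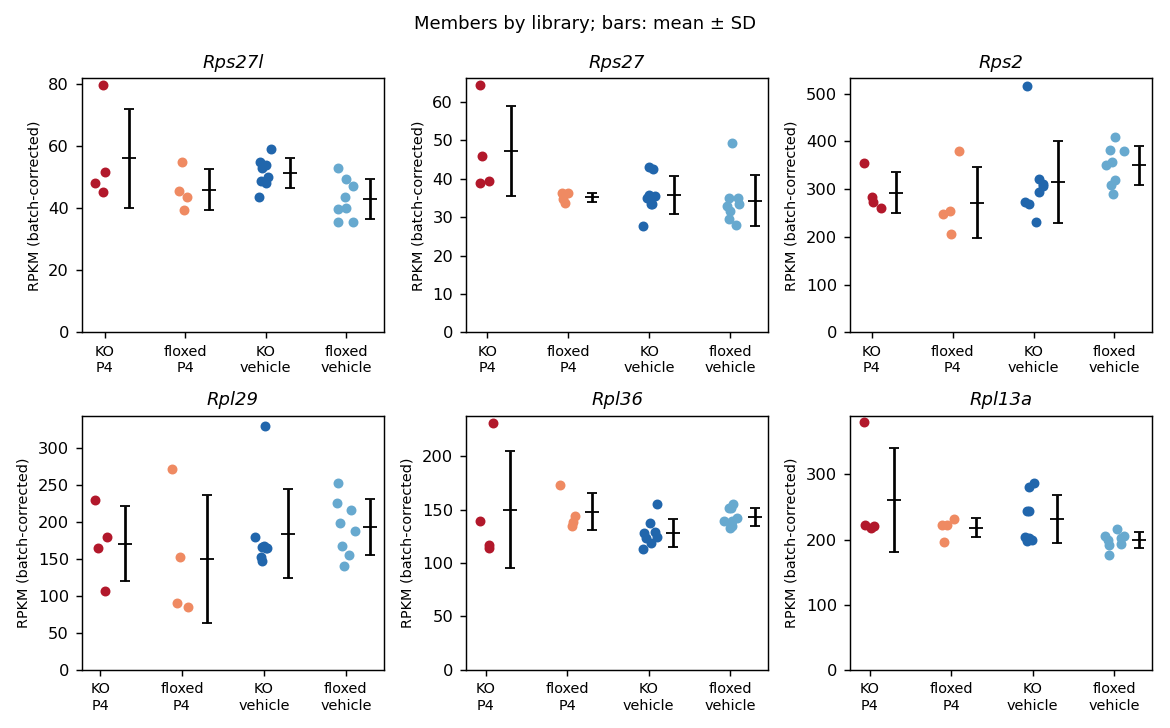
Batch-corrected RPKM of 6 ribosomal protein genes in each library by group, with mean ± SD beside the points. Rps27l lies at 43.5 to 59.1 RPKM in knockout and 35.6 to 53.1 RPKM in floxed uteri after vehicle, and the highest knockout progesterone point in 5 of the 6 panels is library 8, the exception being Rpl29.

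Progesterone against vehicle in floxed uteri left 0 of 79 members past the test by limma, against 23% of all tested genes (1120 higher and 2160 lower, or 1504 and 1683 after centring each library on its median). At an unadjusted p below 0.05 there was 1 member, against 35.2% of all tested genes. The median log2 fold change of the members was 0.06, against −0.06 over all tested genes, and it was −0.02 under quantile normalization and −0.02 with a replicate block. The values ran from −0.52 for Rpl29 to 0.27 for Rps15a.

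The smallest p in this comparison was that of Rps2, a small-subunit protein near the mRNA entry site. Rps2 had 255, 379, 206 and 247 RPKM after progesterone, against 289 to 410 RPKM after vehicle (median 354, n = 8). Of the progesterone libraries, 3 lay below every vehicle library and library 2 lay within their range. The log2 fold change was −0.40 ± 0.18 (SE, adjusted p = 0.115, limma), and an exact two-sided permutation test on a difference of −0.39 gave p = 0.0404. Rps2 passed in some alternatives, at −0.57 without floxed progesterone library 2 (adjusted p = 0.0281), −0.50 within the batch with all 4 groups (adjusted p = 0.0264) and −0.46 without knockout vehicle library 13 (adjusted p = 0.0215). Over all alternatives its adjusted p ranged from 0.000641 to 0.38. In knockout uteri Rps2 had 284, 261, 273 and 355 RPKM after progesterone and 231 to 516 RPKM after vehicle (median 301), a log2 fold change of −0.09 ± 0.18 (SE, adjusted p = 0.831, limma). The difference between both responses was 0.32 ± 0.24 (SE, adjusted p = 0.612). Rps2 was named after its values were seen, and its permutation p is not corrected for that choice.

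Rpl29 and Rpl30 varied most within groups. Rpl29 had 153, 271, 84.7 and 90.4 RPKM in floxed uteri after progesterone and 140 to 252 RPKM after vehicle (median 192, n = 8). Rpl30, which binds its own transcript in yeast, had 24.1, 32.1, 49.5 and 57.4 RPKM after progesterone and 42.2 to 66.4 RPKM after vehicle (median 52.2, n = 8). Both were low in a pair of progesterone libraries each, but in different ones: libraries 7 and 9 for Rpl29, and libraries 1 and 2 for Rpl30. Rpl34, at a far lower level, had 11.2, 18.3, 12.4 and 10.2 RPKM after progesterone and 9.94 to 22.9 RPKM after vehicle (median 11.7, n = 8), with full overlap. Without library 2 the log2 fold change of Rpl29 was −0.86 (adjusted p = 0.0218, limma), and with all libraries it was −0.52 ± 0.28 (SE, adjusted p = 0.196). Over all alternatives its adjusted p ranged from 0.00471 to 0.52.

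In knockout uteri, progesterone against vehicle left 0 of 79 members past the test by limma, against 8.67% of all tested genes (4% higher and 4.66% lower), and 1 member had an unadjusted p below 0.05, against 22.4%. The median was 0.18 with 77 of 79 positive, against −0.02 over all tested genes. Without library 8 the median was 0.00 and 39 were positive. Rps27 was again the extreme, with 39, 39.4, 46 and 64.3 RPKM after progesterone, against 27.6 to 43.2 RPKM after vehicle (median 35.3, n = 8), a log2 fold change of 0.36 ± 0.15 (SE, adjusted p = 0.136, limma). Without library 8 it was 0.21 (adjusted p = 0.449, limma).

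For the difference between the responses of knockout and floxed uteri, 0 of 79 members passed by limma, against 2.49% of all tested genes (1.46% higher and 1.03% lower, 355 genes), and none had an unadjusted p below 0.05, against 14.2%. The median was 0.12 with all libraries, −0.05 without library 8 and −0.03 with libraries weighted by their own fit. The count of 355 over all tested genes was 716 without floxed vehicle library 12, 210 without knockout progesterone library 5, 4122 with libraries weighted by their own fit and 26 with a replicate block. These comparisons share groups, so their values are not independent of each other.

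Lists of genes that build or serve the ribosome are given beside the members, and no difference between a list and the members was tested. After progesterone in floxed uteri, 17 of 55 ribosome biogenesis factors (30.9%) passed as higher and none as lower, against 7.84% of all tested genes that passed as higher. Their median log2 fold change was 0.38. The nuclear export adaptor Nmd3 rose by 0.62 ± 0.12 (SE, adjusted p = 0.000927, limma), the nucleolar GTPase Gnl3 by 0.78 and the small-subunit factor Tsr1 by 0.73. Gnl3 had 45.3, 47.5, 47 and 45 RPKM after progesterone, against 17.9 to 50.2 RPKM after vehicle. The vehicle range overlapped through library 12, and no other vehicle library exceeded 31.6 RPKM.

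That count depended on single libraries. It was 37 without floxed vehicle library 12, 11 without library 4 and 7 without library 3 of the same group, and 10, 8 and 8 without floxed progesterone libraries 2, 7 and 9. It was 1 without 5 libraries set aside for their oviduct or squamous markers, which were knockout progesterone library 8, floxed progesterone library 7, knockout vehicle libraries 9 and 12 and floxed vehicle library 3. In floxed progesterone library 7 the summed oviduct markers reached 451 RPKM. Floxed vehicle library 3 had 146 RPKM of the oviduct marker Ovgp1, but median deviations of −1.02 for the oviduct and −0.91 for the squamous markers. The 5 were not those with the highest medians of these lists. Knockout vehicle library 5, which was kept, had 1.04 and 1.34. It was not alone in this, since it belongs to the vehicle-only batch. All libraries of that batch had medians of 0.63 to 1.28 for the oviduct and 0.67 to 1.34 for the squamous markers. In floxed vehicle library 12 the median deviation of the biogenesis factors was 0.68, while that of the ribosomal protein genes was −0.27, the lowest of all libraries. Within the batch with all 4 groups, 34 biogenesis factors were higher and 1 ribosomal protein gene, Rps2, was lower. The count of higher biogenesis factors was 39 with libraries weighted by their own fit, 27 with no batch term, 11 with no filter on low values and 2 after centring on the median of the ribosomal protein genes, and none was lower in any of these.

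In knockout uteri, 1 biogenesis factor passed as higher after progesterone, Nmd3 at 0.41 ± 0.12 (SE, adjusted p = 0.0399, limma). That call was lost without knockout progesterone library 6 or 8, without knockout vehicle library 5, 9, 10 or 11b and without floxed vehicle library 1a or 4. For the difference between the responses 0 of 55 passed by limma and 1 had an unadjusted p below 0.05, with a median of −0.20. That count was 1 lower without floxed vehicle library 12, and 29 lower and 1 higher with libraries weighted by their own fit. Between genotypes after progesterone, 5 of 55 (9.09%) were lower in knockout uteri and none higher, with a median of −0.34. The share is near the 7.06% of all tested genes that passed as lower. The nucleolar factors Gnl3l, Noc4l and Mybbp1a fell by 0.50, 0.64 and 0.50 on the log2 scale. That count was 26 without floxed vehicle library 12 and 8 without library 10 of the same group. It was 2 without knockout progesterone library 4 or floxed progesterone library 2, and 2 without the 5 libraries with oviduct or squamous markers. It was 3 without knockout progesterone library 5, without floxed progesterone library 7 or 9, without knockout vehicle library 5, 10, 11b or 12, and without floxed vehicle library 1b or 4. It was 24 within the batch with all 4 groups, 49 (with 1 higher) with libraries weighted by their own fit, 9 under quantile normalization, 8 after centring on the median of tested genes or with no batch term, 3 with no filter on low values, 2 after centring on the median of the ribosomal protein genes and 1 with a replicate block. After vehicle, 4 of 55 (7.27%) were lower in knockout uteri and none higher, below the 11.5% of all tested genes that passed as lower. That count was 2 without floxed vehicle library 2 and 7 without floxed vehicle library 10. It was 11 with a replicate block, 13 (with 1 higher) with libraries weighted by their own fit, 1 within the vehicle-only batch and 0 after centring on the median of the ribosomal protein genes.

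**Figure D5:**
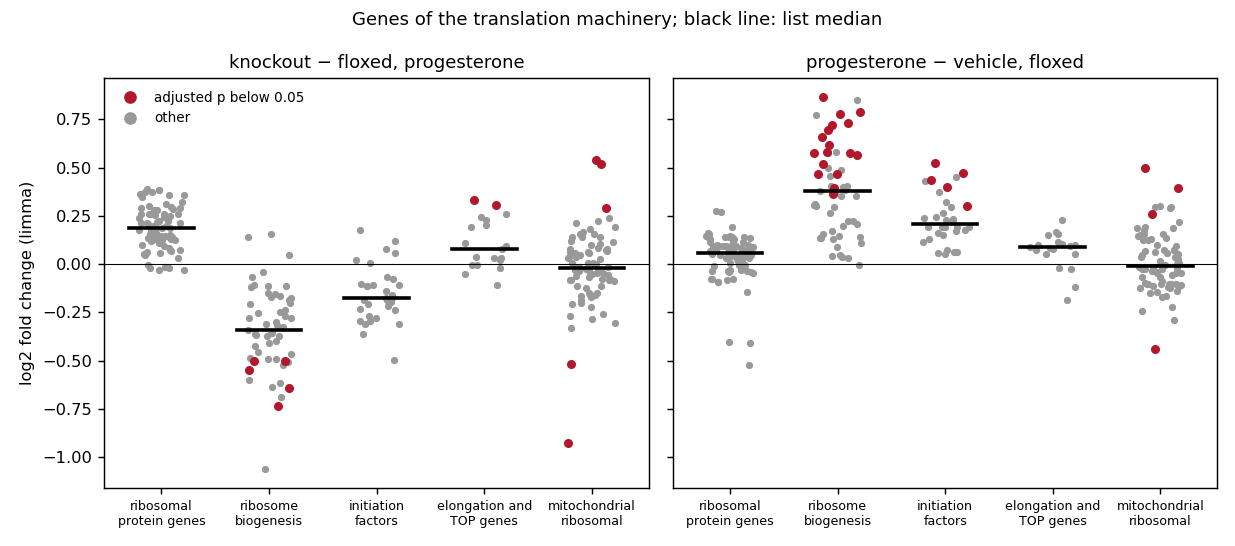
Log2 fold change (limma) of single genes in 5 lists, between genotypes after progesterone (left) and between treatments in floxed uteri (right); red points have an adjusted p below 0.05 and black lines are list medians. The ribosomal protein genes have medians of 0.19 and 0.06 with no red point, and the biogenesis factors have medians of −0.34 and 0.38.

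Among 19 elongation factors and other genes with TOP mRNAs, Pabpc1 (the cytoplasmic poly(A)-binding protein) and Eif3e passed as higher in knockout uteri after both treatments. These 2 genes are 10.5% of the list, against 12.3% of all tested genes that passed as higher after progesterone and 13.1% after vehicle, so the share was no larger than the background. Pabpc1 rose by 0.31 after progesterone and by 0.24 after vehicle, and Eif3e by 0.33 and 0.24 on the log2 scale. Between treatments 0 of this list passed by limma in either genotype, and 2 in knockout and 1 in floxed uteri had an unadjusted p below 0.05. Of 32 initiation factors, 5 (15.6%) passed as higher after progesterone in floxed uteri and none as lower, against 7.84% of all tested genes that passed as higher, among them the cap-binding protein Eif4e at 0.52 and Eif4g2 at 0.30. In the mTOR list of 27 genes, 6 were higher and 5 lower in that comparison (40.7%, against 23% of all tested genes). In knockout against floxed uteri after vehicle, 5 were higher and 1 lower, which is 22.2% of the list and near the 24.6% of all tested genes. Sesn2, which inhibits mTOR complex 1 signalling, had 6.07 to 10.1 RPKM in knockout and 1.96 to 4.33 RPKM in floxed uteri after vehicle. Its log2 fold change there was 1.48 ± 0.12 (SE, adjusted p = 5.37e-09, limma). After progesterone Sesn2 rose in floxed uteri by 1.22 ± 0.16 on the log2 scale (SE, adjusted p = 9.81e-06, limma). In knockout uteri it averaged 8.71 RPKM after vehicle and 9.51 RPKM after progesterone. Its response to progesterone in knockout minus that in floxed uteri was −1.10 ± 0.21 (SE, adjusted p = 0.00412, limma).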

How the data were processed

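Whole-uterus RNA was extracted with Trizol, cleaned up with DNase and made into TruSeq libraries, per the labels' protocols. The submitters' processing notes name cutadapt 2.7, TopHat, Partek and the build mm10. Not given in the sources used here were the read-counting rule, whether it used strand, and how the batch correction was computed. The single table that the authors deposited holds batch-corrected RPKM per gene, neither counts nor plain RPKM. In it 5.93% of values lie below 0, and for 79 of 79 tested members the vehicle means of the batch with all 4 groups (16 libraries) and the vehicle-only batch (8 libraries) are equal within 0.0001. Ratios between libraries therefore need not equal those of uncorrected RPKM. The test planned for plain RPKM was used unchanged.

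Values below 0 were set to 0 and tested as log2(RPKM + 0.5), which understates fold changes of low genes. The 14284 genes that reached 1 RPKM in 4 or more libraries entered a single model in limma (version 3.58.1 under R 4.3.3, robust moderation with a mean-variance trend) with 4 groups and a batch term, 19 residual degrees of freedom, and two-sided tests with Benjamini-Hochberg adjustment at 0.05 over all of these genes. The fit was tested on simulated data. Depth was read from the steps between low values, 29.9 to 100.6 M reads per library. Exact permutation tests compared unadjusted group means of log2 values, and 3 were run. They covered Rps27, Rps27l and Rps2, each the member with the smallest limma p in its comparison, with no correction for that choice. Alternatives were other pseudocounts and filters, quantile normalization, centring, batches alone, library weights, a replicate block, plain eBayes, no log and leaving out libraries.

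Members and lists were chosen with earlier results of these data known. Members named by rule were Rps27l, Rpl3l, Rpl10l, Rpl39l and their partners, the stalk, Rpsa, Rps6, Rpl5, Rpl11, Rpl22, and the 3 highest, 3 lowest and 3 most variable tested members; per list, called genes with the smallest adjusted p. Rps2, Rps13, Rpl36, Rpl13a, Rpl23, Rps24 and other members named outside that rule were chosen after their values were seen.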

Additional observations from a re-analysis of the deposited data

Results flagged for a closer look

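A gap to the nearest library larger than Dixon's 95% critical value was found in 19 of 100 groups of values examined, where chance gives about 1 in 20. Knockout progesterone library 8 was the outlying library in 7 of them. It had 714 RPKM of Rplp0, 889 RPKM of Rplp1, 90.6 RPKM of Rplp2, 413 RPKM of Rpsa, 87.7 RPKM of Rpl22, 1296 RPKM of Rpl41 and 380 RPKM of Rpl13a, each above the other 3 libraries of its group. Knockout vehicle library 13 was the outlying one in another 7. It had 403 RPKM of Rpl3, 67.3 RPKM of Rplp2, 419 RPKM of Rpsa, 409 RPKM of Rps6, 156 RPKM of Rpl11, 330 RPKM of Rpl29 and 516 RPKM of Rps2. Floxed vehicle library 1a stood apart with 49.4 RPKM of Rps27, 172 RPKM of Rpl39 and 175 RPKM of Rpl5. In the floxed progesterone group, library 7 was low in Rps15a at 11.1 RPKM and library 2 was high in Rps4l at 23.3 RPKM. The median deviation of the members and their share of all RPKM were examined in the same way, and neither was flagged in any group. The shift of library 8 over all members therefore did not pass this rule, nor did those of libraries 13 and 1a. These groups of values share libraries and are not independent of each other.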

How the results depend on the processing

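Against 0 members called in each of the 5 comparisons, quantile normalization called 3 between genotypes after progesterone, 4 between genotypes after vehicle and 1 between treatments in floxed uteri (Rps2). Library weights called 7 (1 higher and 6 lower), 9 (3 and 6) and 8 (6 and 2) in these comparisons and 1 for the difference between the responses (Rpl29). The batch with all 4 groups called 1 between genotypes after progesterone (Rps27) and 1 between treatments in floxed uteri (Rps2). Leaving out the 3 libraries with the highest member level, chosen after seeing the data, called 2, 3 and 1 in the first 3 comparisons. Leaving out 1 library at a time gave 0 to 1 called between genotypes after progesterone, 0 to 2 between genotypes after vehicle, 0 to 2 between treatments in floxed uteri and 0 to 0 in the others. The replicate block called 1 member (Rps2) between treatments in floxed uteri and 0 elsewhere. Under the other alternatives run, among them centring on the member median, 0 members were called. The cause of these moves was not tested. The block lowered the count of all called genes between genotypes after progesterone to 822, against 2767 without it. Of 13 same-numbered pairs, 6 had deviations that correlated above 0.1 (range −0.34 to 0.54). Most of these pairs cross batches, so the correlations cannot show whether equal numbers mark related libraries. Between genotypes after progesterone, library weights raised the count of all called genes to 7123 and centring on the member median lowered it to 935. In the other comparisons library weights gave 6500 between genotypes after vehicle, 6276 between treatments in floxed uteri, 5965 between treatments in knockout uteri and 4122 for the difference between the responses, and centring on the member median gave 1533, 906, 395 and 75. Between treatments in knockout uteri the block gave 162 and leaving out the 5 libraries with oviduct or squamous markers 398, against 1238. The unstated counting rule limits what single members with near-identical copies can show.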

Other observations

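Mitochondrial ribosomal protein genes, which serve the separate ribosome of mitochondria, passed in small numbers. Of 78 tested, 3 were higher and 2 lower in knockout than in floxed uteri after progesterone, and 1 was higher and 2 lower after vehicle. These are 6.41% and 3.85% of the list, against 19.4% and 24.6% of all tested genes. Mrps2 fell by 0.93 on the log2 scale after progesterone (adjusted p = 4.72e-05, limma) and by 0.73 after vehicle. In the list of RNA polymerase I and its factors, which make the ribosomal RNA precursor, 2 of 16 passed as higher and 1 as lower after progesterone in floxed uteri, or 18.8%, against 23% of all tested genes. The initiation factor Rrn3 rose by 0.47 and the promoter factor Taf1d by 0.58, and Ttf1, a transcription termination factor, fell by 0.25. Rrn3 also rose in knockout uteri, by 0.43 (adjusted p = 0.0107, limma).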
